A study of Mus musculus and Homo sapiens with 8 samples.

Results

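The interferon response genes described here are 47 mouse genes, chosen by name as induced by type I interferon (interferons alpha and beta) or by interferon gamma. All 47 are among the 13359 distinct genes listed, and all 47 passed the filter on low values, so none of these is left out. The list holds 0 genes with means under 1 FPKM in both groups. Interferon targets below that level could therefore not be among the 47. RNA-seq was done on small intestinal crypts of 2-month-old, untreated C57BL/6 mice. One group carried the Apc Min mutation together with a Zmynd8 deletion in the intestinal epithelium, labelled APCmin+; Zmynd8IEC-/-, and the other carried the Apc Min mutation alone, labelled APCmin+. Both groups therefore share the Apc Min mutation, a truncation of the Wnt pathway regulator Apc that leads to intestinal adenomas, and no group without it was measured. Each group had 2 libraries, and each library is a pool of equal masses of RNA from 3 mice. Which promoter drove the deletion is unstated in the labels. The deletion is labelled as epithelial, so RNA of immune and stromal cells in a crypt preparation comes from cells that keep the gene. ZMYND8 binds modified histones in chromatin, and the study concerned its part in mevalonate metabolism in intestinal tumours with high YAP.

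Interferons are secreted proteins that put cells into an antiviral and antimicrobial state. Type I interferons, and interferon lambda in gut epithelium, act through the kinases JAK1 and TYK2 on a complex that holds STAT2 and IRF9 and binds the interferon-stimulated response element (ISRE). Interferon gamma, made mainly by T cells and natural killer cells, acts through JAK1 and JAK2 on genes with a gamma-activated site (GAS), and through the factor IRF1. The 47 genes were sorted by role into 5 nucleic acid sensors, 5 transcription factors, 4 genes of ISG15 conjugation, 17 effectors, 4 genes of the PARP and DTX3L group, the chemokine Cxcl10 and 11 interferon-inducible GTPases. For one contrast, 23 typical type I targets were set against the 11 GTPases. The GTPases are the immunity-related GTPases and guanylate-binding proteins known as interferon gamma targets in mice. In neither list are 13 members: Zbp1, Irf1, Irf8, Uba7, Samhd1, Trim30a, Ifi35, Lgals3bp, Cxcl10, Parp9, Parp12, Parp14 and Dtx3l. Many genes respond to both kinds of interferon, so the list names describe typical inducers and not what acted here.

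Promoters are shown here for 2 type I targets and 4 GTPases among the members with the largest fold changes whose promoter windows RefSeq gives. A window covers 250 bases before the start site and 50 bases from it, in GRCm38.p6, the same assembly as mm10. Capitals mark every match on either strand to the ISRE core, which is GAAA, any 2 bases and GAAA again, or to the GAS motif TTCNNNGAA, and overlapping matches run together.
Isg15 (chr4:156200769-156201068, minus strand): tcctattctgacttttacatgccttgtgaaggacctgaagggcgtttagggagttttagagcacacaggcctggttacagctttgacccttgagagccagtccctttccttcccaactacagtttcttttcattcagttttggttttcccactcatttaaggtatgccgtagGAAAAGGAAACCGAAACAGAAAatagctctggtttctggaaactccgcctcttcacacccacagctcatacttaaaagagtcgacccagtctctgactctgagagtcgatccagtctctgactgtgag
Ifit2 (chr19:34550444-34550743, plus strand): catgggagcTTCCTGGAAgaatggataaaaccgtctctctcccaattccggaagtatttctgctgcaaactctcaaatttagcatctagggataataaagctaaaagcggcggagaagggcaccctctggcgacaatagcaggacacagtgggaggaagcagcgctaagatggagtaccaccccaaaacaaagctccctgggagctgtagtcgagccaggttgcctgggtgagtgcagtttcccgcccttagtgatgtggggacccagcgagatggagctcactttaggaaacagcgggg
Tgtp1 (chr11:48992197-48992496, minus strand): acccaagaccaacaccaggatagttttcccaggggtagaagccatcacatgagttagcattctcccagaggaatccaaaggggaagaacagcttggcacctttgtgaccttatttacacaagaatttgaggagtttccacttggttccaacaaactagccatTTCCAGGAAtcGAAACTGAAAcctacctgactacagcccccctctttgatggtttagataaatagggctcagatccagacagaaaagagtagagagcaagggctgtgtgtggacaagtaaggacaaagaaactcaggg
Gbp2 (chr3:142620413-142620712, plus strand): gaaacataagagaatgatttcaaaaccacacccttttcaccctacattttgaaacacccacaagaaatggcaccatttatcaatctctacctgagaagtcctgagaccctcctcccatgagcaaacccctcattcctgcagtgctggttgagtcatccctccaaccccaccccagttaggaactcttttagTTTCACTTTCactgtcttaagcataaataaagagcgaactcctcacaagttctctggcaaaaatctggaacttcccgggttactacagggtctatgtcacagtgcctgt
Irgm2 (chr11:58214727-58215026, plus strand): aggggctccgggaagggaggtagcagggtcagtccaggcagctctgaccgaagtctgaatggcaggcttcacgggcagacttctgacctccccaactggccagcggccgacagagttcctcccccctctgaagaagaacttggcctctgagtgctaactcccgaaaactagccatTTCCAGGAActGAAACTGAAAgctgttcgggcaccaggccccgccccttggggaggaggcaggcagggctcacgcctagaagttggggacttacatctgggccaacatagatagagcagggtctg
Irgm1 (chr11:48871371-48871670, minus strand): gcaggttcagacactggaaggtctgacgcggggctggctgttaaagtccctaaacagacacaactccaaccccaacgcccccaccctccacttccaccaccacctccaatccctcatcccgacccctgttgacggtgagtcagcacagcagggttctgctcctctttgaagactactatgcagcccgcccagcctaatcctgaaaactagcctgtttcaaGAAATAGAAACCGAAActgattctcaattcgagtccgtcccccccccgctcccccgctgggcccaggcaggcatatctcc
Of the 23 type I targets 19 were matched in RefSeq, and 12 of the 19 (63.2%) had an ISRE core. Of the 11 GTPases 7 were matched, and all 7 had one. Among all 27025 genes with windows 1079 (3.99%) had one. The GAS motif stood in 4 of the 7 GTPases (57.1%), in 4 of the 19 type I targets (21.1%) and in 2582 of all genes (9.55%). The windows of Oasl2 and Ifit2 held no ISRE core, and that of Ifit2 held a GAS match. The start site used for the Ifit2 window lies 145 bases from the 5′ end of Ifit2 in the deposited table. In Bst2 the matches to both motifs overlap each other. These are matches of letters in a fixed window, and no binding was measured.

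In 3 of the GTPase genes on chromosome 11 the GAS match stands 2 bases before the ISRE core. This stretch is shown because it is nearly the same in all 3, and it was chosen after the matches were seen. The first capitals mark the GAS motif and the second the ISRE core.
Irgm2 (chr11:58214897-58214927, plus strand): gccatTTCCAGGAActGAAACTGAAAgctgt
Igtp (chr11:58199506-58199536, plus strand): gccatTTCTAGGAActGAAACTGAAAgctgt
Tgtp1 (chr11:48992309-48992339, minus strand): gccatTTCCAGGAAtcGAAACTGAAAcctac
The GAS match runs from base -75 to -67 in Irgm2, from -45 to -37 in Igtp and from -88 to -80 in Tgtp1, counted from the start site. The joint pattern, a GAS match, any 2 bases and an ISRE core, was found in 5 of all 27025 genes (0.0185%), which are these 3, Tgtp2 and Gm12185, and in 0 of the 19 matched type I targets.

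The libraries were deep and alike in size: 45304190 and 46779804 reads fell on the listed genes in the pools labelled knockout, and 43457253 and 47500049 in the Apc Min pools. The members rested on 120 to 19705 reads per pool. Zmynd8, the targeted gene, was not lower where deletion is labelled, with 7.304 and 7.65 FPKM in the pools labelled knockout, against 6.94 and 4.73 FPKM in the Apc Min pools (log2 fold change 0.33, SE 0.18, adjusted p = 0.293 by limma), and gene-level values do not show single exons. The labels therefore have no check from the targeted gene, and every direction below rests on them. Defining epithelial markers were abundant in all 4 pools, with Epcam at 989 and 976 FPKM in the pools labelled knockout, against 1195 and 1315 FPKM in the Apc Min pools. Over the 12948 genes tested the log2 fold changes had a median of -0.15, which median-ratio scaling put at -0.01, so values after that scaling are given where they matter. Whether the pools of a group came from separate litters or days is unstated, and p-values speak only for the differences among these 4 pools.

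The type I targets had higher values in the pools labelled knockout and the GTPases lower ones, but no member passed the test. In such bulk samples fewer cells of a type and less RNA per cell cannot be told apart. Limma called 0 of the 47 members at an adjusted p under 0.05, where it called 94 of 12948 genes (0.726%), and limma-voom on recovered reads also called 0. At an unadjusted p under 0.05 the members' count with limma was 23 of 47, and the share of all genes was 26.6%. Of the 23 type I targets 13 had such a p with a positive fold change, where 7.49% of all genes did. Of the 11 GTPases 6 had one with a negative fold change, where 19.1% of all genes did. The limma adjusted p-values of the 47 members ran from 0.0638 for Usp18 to 0.832 for Eif2ak2. The largest positive log2 fold change was 0.85, of Usp18, and the largest negative one -0.88, of Gbp6, both on log2(FPKM + 1). The ratios of mean FPKM, taken without the added 1, were 1.89 for Usp18 and 0.472 for Gbp6. By that ratio Oas2 was highest (1.998) and Tgtp1 lowest (0.375).

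Both pools labelled knockout stood above both Apc Min pools for 17 of the 23 type I targets (73.9%), where 14.9% of all genes did, and below both for 1, Ifit2. The GTPases were the other way round: 8 of 11 (72.7%) stood below both Apc Min pools, where 48.5% of all genes did, and 0 stood above. After median-ratio scaling the type I count was 20 (87.0%, against 27.9% of all genes) and the GTPase count was 6 (54.5%, against 28.3%). The median log2 fold change was 0.38 over the type I targets and -0.70 over the GTPases, or 0.54 and -0.54 after median-ratio scaling, beside -0.15 and -0.01 over all genes tested. Fold changes were positive for 20 type I targets, where 28.3% of all genes were, and for 21 after median-ratio scaling, where 48.7% were. They were negative for all 11 GTPases, where 9279 of 12948 genes were. After median-ratio scaling they were negative for all but Gbp3, where 6645 of 12948 genes were. Of the 13 members in neither list 2 were higher in both pools labelled knockout (15.4%) and 5 lower (38.5%), with a median of -0.10. After median-ratio scaling 4 were higher and 3 lower, with a median of 0.07, beside the same shares of all genes.

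**Figure D1:**
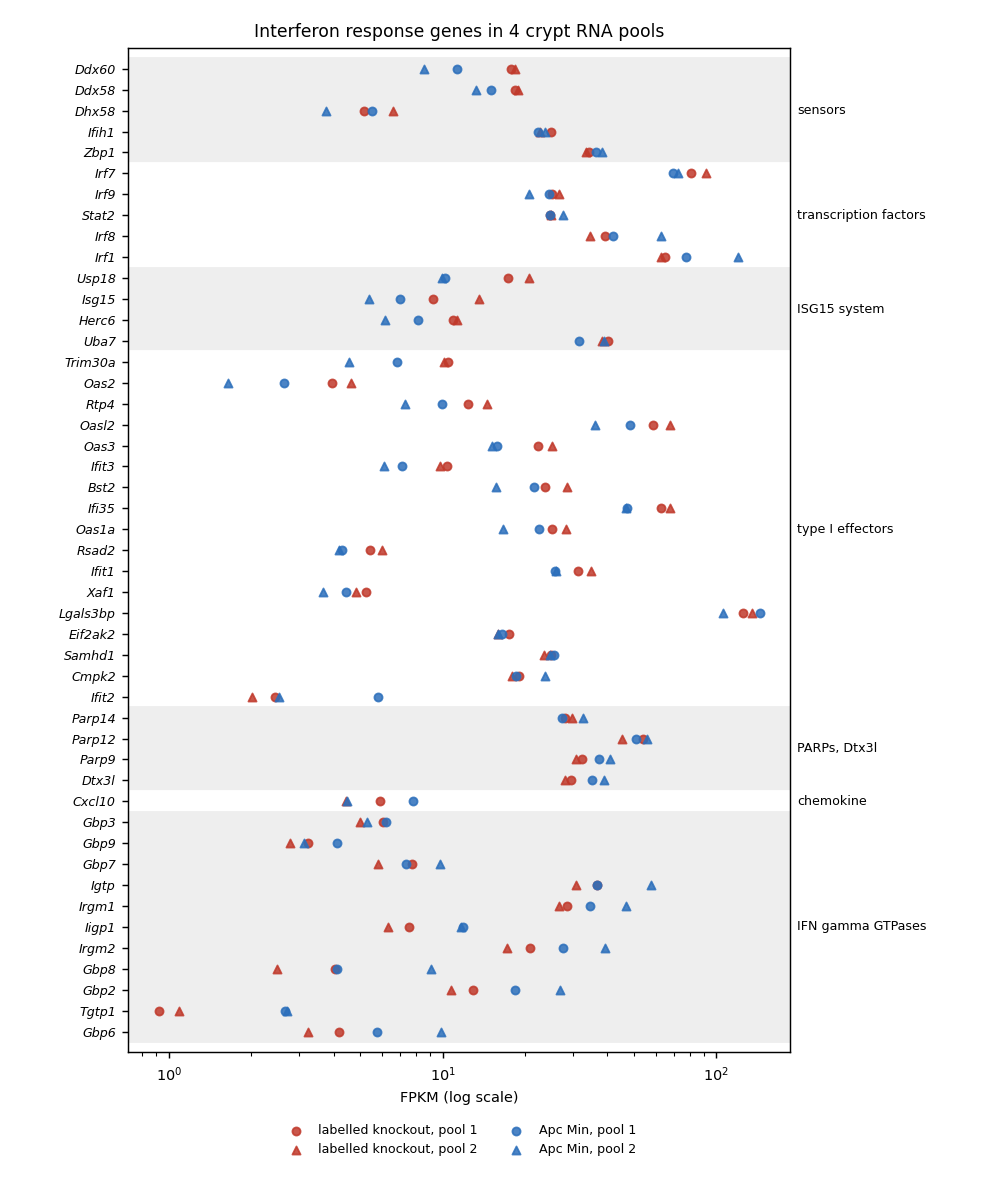
FPKM of the 47 interferon response genes in each pool, on a log axis, grouped by role. Red points are the pools labelled knockout and blue points the Apc Min pools; 17 of the 23 type I targets have both red points to the right of both blue ones, and 8 of the 11 GTPases have both to the left.

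Of the 5 sensors 2 were higher in both pools labelled knockout than in both Apc Min pools, 1 was lower in both and 2 overlapped, where 14.9% of all genes were higher and 48.5% lower. After median-ratio scaling 4 were higher, 0 lower and 1 overlapped, where 27.9% of all genes were higher and 28.3% lower. Ddx60, which encodes a helicase that aids RIG-I, had 17.8 and 18.4 FPKM in the pools labelled knockout, against 11.3 and 8.54 FPKM in the Apc Min pools (log2 fold change 0.82, SE 0.15, adjusted p = 0.0806 by limma). The 2 groups do not overlap for it, and the pools labelled knockout differ little from each other. Ddx58 encodes RIG-I, the sensor of viral RNA ends, and had 18.4 and 18.9 FPKM in the pools labelled knockout, against 15.03 and 13.2 FPKM in the Apc Min pools (log2 fold change 0.38, SE 0.10, adjusted p = 0.125 by limma), again without overlap. Dhx58, the gene of the related LGP2, overlapped between the groups, with 5.16 and 6.57 FPKM in the pools labelled knockout, against 5.53 and 3.74 FPKM in the Apc Min pools. So did Ifih1, which encodes MDA5, the sensor of long double-stranded RNA, with 24.8 and 22.8 FPKM in the pools labelled knockout, against 22.3 and 23.8 FPKM in the Apc Min pools; its log2 fold change was 0.04 (95% interval -0.21 to 0.30). Zbp1, a sensor of Z-form nucleic acid that can start cell death, was the 1 sensor lower in both pools labelled knockout, with 34.2 and 33.5 FPKM in the pools labelled knockout, against 36.3 and 38.3 FPKM in the Apc Min pools (log2 fold change -0.14), and median-ratio scaling put it at 0.03.

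The transcription factors did not go one way. Irf7, the factor that amplifies type I interferon production, had 81.1 and 91.7 FPKM in the pools labelled knockout, against 69.7 and 72.7 FPKM in the Apc Min pools (log2 fold change 0.27, SE 0.11, adjusted p = 0.194 by limma), with both pools labelled knockout above both Apc Min pools. Irf9, the DNA-binding part of the type I complex, had 25.1 and 26.6 FPKM in the pools labelled knockout, against 24.6 and 20.7 FPKM in the Apc Min pools (log2 fold change 0.19). Stat2, its partner, had 24.7 and 24.9 FPKM in the pools labelled knockout, against 24.6 and 27.5 FPKM in the Apc Min pools (95% interval -0.32 to 0.19). Irf9 was higher without overlap and Stat2 overlapped. Irf1, which relays the interferon gamma signal, had 64.8 and 62.9 FPKM in the pools labelled knockout, against 77.5 and 120.2 FPKM in the Apc Min pools (log2 fold change -0.59, SE 0.23, adjusted p = 0.191 by limma). Irf8, a factor best known from immune cells, had 39.2 and 34.4 FPKM in the pools labelled knockout, against 41.9 and 62.8 FPKM in the Apc Min pools (log2 fold change -0.47, SE 0.22, adjusted p = 0.238 by limma). For both genes the Apc Min pool 2 stood highest by far, and the Apc Min pools differed more from each other than pool 1 did from the pools labelled knockout.

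Genes of the ISG15 system had the highest median log2 fold change of the 7 role groups, 0.68. ISG15 is a ubiquitin-like protein that UBA7 activates, that the HERC6 ligase attaches to targets in mice and that the protease USP18 removes; USP18 also dampens type I receptor signalling. Usp18 averaged 19.03 ± 2.44 FPKM in the pools labelled knockout and 10.1 ± 0.192 FPKM in the Apc Min pools (SD, n = 2 each). The single pools had 17.3 and 20.8 FPKM in the pools labelled knockout, against 10.2 and 9.94 FPKM in the Apc Min pools, without overlap (log2 fold change 0.85, SE 0.12, adjusted p = 0.0638 by limma). Isg15 had 9.21 and 13.6 FPKM in the pools labelled knockout, against 7.01 and 5.396 FPKM in the Apc Min pools (log2 fold change 0.77, SE 0.22, adjusted p = 0.133 by limma), on as few as 199 reads in 1 pool, and the pools labelled knockout were unlike in level though both were above the Apc Min pools. Herc6 had 10.9 and 11.3 FPKM in the pools labelled knockout, against 8.12 and 6.16 FPKM in the Apc Min pools (log2 fold change 0.59, SE 0.15, adjusted p = 0.114 by limma), also without overlap. Uba7 overlapped, with 40.3 and 38.2 FPKM in the pools labelled knockout, against 31.5 and 38.98 FPKM in the Apc Min pools (log2 fold change 0.16). The promoter window of Isg15 shown above holds 3 overlapping ISRE cores, all within the run of capitals.

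Of the 17 effectors 12 were higher in both pools labelled knockout than in both Apc Min pools, 1 was lower in both and 4 overlapped, beside the same 14.9% and 48.5% of all genes. After median-ratio scaling 14 were higher and 0 lower, where 27.9% and 28.3% of all genes were. The oligoadenylate synthetase genes, whose products switch on the RNA-cutting enzyme RNase L, were all among the 12. On chromosome 5 (120730333 to 120907544, mm10) Oas2 had 3.95 and 4.63 FPKM in the pools labelled knockout, against 2.64 and 1.65 FPKM in the Apc Min pools (log2 fold change 0.76, SE 0.20, adjusted p = 0.1198 by limma). Oas3, in the same stretch, had 22.3 and 25.01 FPKM in the pools labelled knockout, against 15.8 and 15.2 FPKM in the Apc Min pools (log2 fold change 0.58, SE 0.10, adjusted p = 0.0782 by limma). Oas1a, the last of the stretch, had 25.1 and 28.3 FPKM in the pools labelled knockout, against 22.5 and 16.6 FPKM in the Apc Min pools (log2 fold change 0.44). Oasl2, which lies elsewhere on that chromosome, had the highest FPKM of the 4, 58.9 and 67.7 FPKM in the pools labelled knockout, against 48.3 and 36.1 FPKM in the Apc Min pools (log2 fold change 0.59, SE 0.17, adjusted p = 0.133 by limma). In each of these 4 genes the Apc Min pool 2 was the lowest of all and the pool 2 labelled knockout the highest.

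The Ifit genes, whose products bind foreign RNA ends, lie together on chromosome 19 (34550549 to 34650009) and differed among themselves. Ifit3 had 10.4 and 9.75 FPKM in the pools labelled knockout, against 7.11 and 6.09 FPKM in the Apc Min pools (log2 fold change 0.54, SE 0.12, adjusted p = 0.0961 by limma). Ifit1 had 31.2 and 34.8 FPKM in the pools labelled knockout, against 25.7 and 26.05 FPKM in the Apc Min pools (log2 fold change 0.34, SE 0.10, adjusted p = 0.134 by limma). Neither gene overlapped between the groups, and both had matches to the ISRE core in their windows. Ifit2 went against them, with 2.44 and 2.01 FPKM in the pools labelled knockout, against 5.803 and 2.53 FPKM in the Apc Min pools (log2 fold change -0.60, SE 0.35, adjusted p = 0.323 by limma). Its high value was that of Apc Min pool 1 alone, and the other 3 pools lay between 2.01 and 2.53 FPKM. Ifit1 lies wholly inside the span of Ifit1bl1 on the opposite strand, and the sources do not say whether counting used strand, which leaves the Ifit1 value uncertain.

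Of the other effectors Trim30a had the largest fold change. Trim30a, a regulator of inflammatory signalling, had 10.5 and 10.1 FPKM in the pools labelled knockout, against 6.801 and 4.56 FPKM in the Apc Min pools (log2 fold change 0.78, SE 0.18, adjusted p = 0.106 by limma). Rtp4, a zinc finger protein gene with antiviral action, had 12.4 and 14.5 FPKM in the pools labelled knockout, against 9.94 and 7.31 FPKM in the Apc Min pools (log2 fold change 0.60, SE 0.17, adjusted p = 0.1302 by limma). Both were without overlap and were lowest in Apc Min pool 2. Bst2, whose product tethers budding viruses to the cell, had 23.7 and 28.4 FPKM in the pools labelled knockout, against 21.7 and 15.6 FPKM in the Apc Min pools (log2 fold change 0.47). Ifi35, a partner of NMI, had 62.7 and 67.8 FPKM in the pools labelled knockout, against 46.99 and 46.8 FPKM in the Apc Min pools (log2 fold change 0.47). Both were without overlap. Rsad2, the gene of the antiviral enzyme viperin, stood at 5.45 and 6.01 FPKM in the pools labelled knockout, against 4.31 and 4.17 FPKM in the Apc Min pools. Xaf1, which promotes cell death, stood at 5.27 and 4.82 FPKM in the pools labelled knockout, against 4.45 and 3.66 FPKM in the Apc Min pools. Here too both pools labelled knockout were the higher ones. Cmpk2, a nucleotide kinase gene next to Rsad2 on chromosome 12, did not go with its neighbour: it had 19.1 and 17.9 FPKM in the pools labelled knockout, against 18.6 and 23.7 FPKM in the Apc Min pools (log2 fold change -0.18, 95% interval -0.53 to 0.18). Eif2ak2, the gene of the RNA-activated kinase PKR, Samhd1, which breaks down nucleotides, and the secreted Lgals3bp lay at 0.04, -0.05 and 0.06 with overlap. Lgals3bp had the highest mean FPKM of the 47 members over the 4 pools, with 125 and 135 FPKM in the pools labelled knockout, against 145 and 106 FPKM in the Apc Min pools. Isg15 and Ifi35 share 776 and 815 bases with unnamed or predicted genes on the opposite strand, and reads of Oas1a, Ifit3 and Trim30a may be shared with the near-copies Oas1g, Ifit3b and Trim30d, so these values carry that uncertainty.

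**Figure D2:**
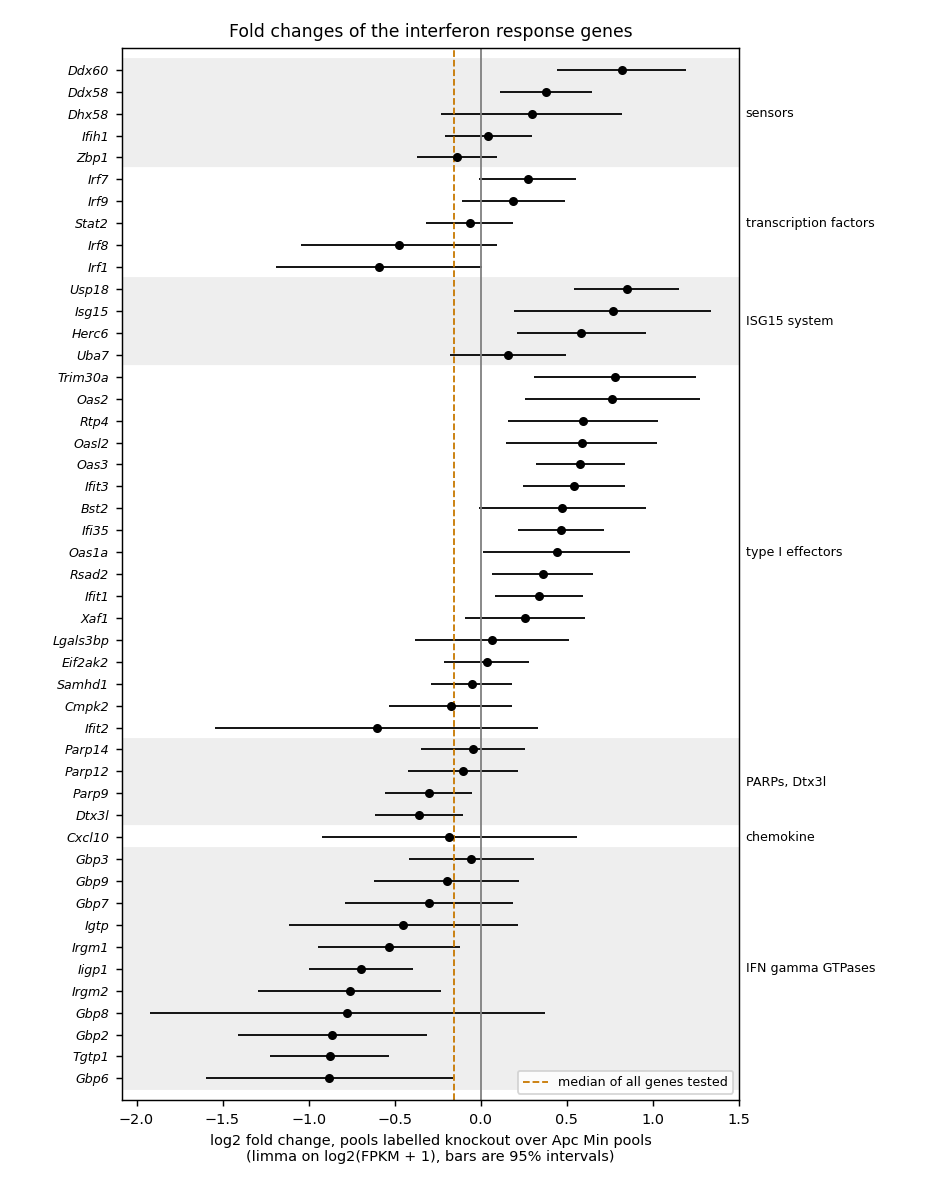
Log2 fold changes of the 47 genes, pools labelled knockout over Apc Min pools, with 95% intervals from limma; the dashed line is the median of all genes tested, -0.15. Sensors, ISG15 genes and effectors lie mostly right of 0, and the 11 GTPases all lie left of it.

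The PARP and DTX3L genes, whose products add ADP-ribose and ubiquitin to proteins and act in the interferon response, were not higher. Dtx3l had 29.4 and 27.9 FPKM in the pools labelled knockout, against 35.3 and 38.8 FPKM in the Apc Min pools (log2 fold change -0.36, SE 0.10, adjusted p = 0.126 by limma). Parp9, its partner, had 32.4 and 30.6 FPKM in the pools labelled knockout, against 37.4 and 40.8 FPKM in the Apc Min pools (log2 fold change -0.30, SE 0.10, adjusted p = 0.152 by limma). Dtx3l and Parp9 were lower in both pools labelled knockout, 2 of the group's 4 genes (50%), where 48.5% of all genes were lower. After median-ratio scaling the same 2 were lower, where 28.3% of all genes were. Dtx3l and Parp9 lie on opposite strands of chromosome 16 and share 558 bases. Their values are not independent of each other if strand was not used in counting. Parp14, the next gene, had 28.1 and 29.7 FPKM in the pools labelled knockout, against 27.4 and 32.5 FPKM in the Apc Min pools. Parp12, on chromosome 6, had 53.9 and 45.3 FPKM in the pools labelled knockout, against 50.7 and 55.7 FPKM in the Apc Min pools. Both overlapped between the groups, at log2 fold changes of -0.05 and -0.10, and both were positive after median-ratio scaling (0.12 and 0.07). Cxcl10, the chemokine that draws T cells, had 5.91 and 4.43 FPKM in the pools labelled knockout, against 7.82 and 4.47 FPKM in the Apc Min pools, with Apc Min pool 1 highest and wide overlap; it overlaps Art3 on the opposite strand.

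The immunity-related GTPases, which attack the vacuoles of intracellular parasites and bacteria, had lower values in the pools labelled knockout. Irgm2 averaged 19.1 ± 2.56 FPKM in the pools labelled knockout and 33.4 ± 8.297 FPKM in the Apc Min pools (SD, n = 2 each), with 20.9 and 17.3 FPKM in the pools labelled knockout, against 27.5 and 39.3 FPKM in the Apc Min pools (log2 fold change -0.76, SE 0.20, adjusted p = 0.125 by limma). Its neighbour Igtp, on chromosome 11 from 58199556 to 58207592, had 36.7 and 30.6 FPKM in the pools labelled knockout, against 36.8 and 57.8 FPKM in the Apc Min pools (log2 fold change -0.45, SE 0.25, adjusted p = 0.304 by limma). The Igtp groups do not overlap, but only narrowly, since Apc Min pool 1 almost equals pool 1 labelled knockout. Irgm1, a regulator of the family and of autophagy, had 28.4 and 26.7 FPKM in the pools labelled knockout, against 34.7 and 46.7 FPKM in the Apc Min pools (log2 fold change -0.53, SE 0.16, adjusted p = 0.138 by limma). Tgtp1, which lies close to Irgm1, had 0.918 and 1.09 FPKM in the pools labelled knockout, against 2.66 and 2.69 FPKM in the Apc Min pools (log2 fold change -0.88, SE 0.13, adjusted p = 0.0705 by limma), on 120 to 369 reads. Iigp1, on chromosome 18, had 7.52 and 6.301 FPKM in the pools labelled knockout, against 11.9 and 11.7 FPKM in the Apc Min pools (log2 fold change -0.70, SE 0.12, adjusted p = 0.0765 by limma). In Tgtp1 and Iigp1 the pools of each group were close to each other, and in Igtp, Irgm1 and Irgm2 the Apc Min pool 2 was well above pool 1. Reads of Tgtp1 and its near-copy Tgtp2 could be shared or split in counting. Tgtp2 itself had 2.59 and 2.48 FPKM in the pools labelled knockout, against 4.39 and 4.295 FPKM in the Apc Min pools (log2 fold change -0.60). Tgtp2 also shares 7017 bases with Olfr56 on the opposite strand.

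The guanylate-binding proteins, which coat pathogens and their vacuoles, come from clusters on chromosome 3 (142530336 to 142638008) and chromosome 5 (105012513 to 105295871). Gbp2 had 12.95 and 10.8 FPKM in the pools labelled knockout, against 18.4 and 26.9 FPKM in the Apc Min pools (log2 fold change -0.86, SE 0.21, adjusted p = 0.117 by limma). Gbp6 had 4.17 and 3.22 FPKM in the pools labelled knockout, against 5.77 and 9.91 FPKM in the Apc Min pools (log2 fold change -0.88, SE 0.27, adjusted p = 0.148 by limma). For both, Apc Min pool 2 was highest and pool 2 labelled knockout lowest, without overlap. Gbp8 had 4.06 and 2.49 FPKM in the pools labelled knockout, against 4.12 and 9.09 FPKM in the Apc Min pools (log2 fold change -0.78, SE 0.41, adjusted p = 0.2998 by limma), where Apc Min pool 2 stood far above the other 3 pools. Gbp7 overlapped between the groups, with 7.72 and 5.801 FPKM in the pools labelled knockout, against 7.36 and 9.77 FPKM in the Apc Min pools. Gbp9 did as well, with 3.22 and 2.78 FPKM in the pools labelled knockout, against 4.11 and 3.11 FPKM in the Apc Min pools. Gbp3, the third of them, had 6.05 and 4.99 FPKM in the pools labelled knockout, against 6.22 and 5.303 FPKM in the Apc Min pools. Genes of 1 cluster thus differed: Gbp3 and Gbp2 lie within the same stretch of chromosome 3 and had log2 fold changes of -0.05 and -0.86. Members of this family are close in sequence, so reads may have been shared between them.

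The pools of a group also differed from each other along the same contrast. The mean log2(FPKM + 1) of the type I targets was 4.03 and 4.13 in the pools labelled knockout and 3.82 and 3.61 in the Apc Min pools (replicates 1 and 2 each). For the GTPases it was 3.19 and 2.96 in the pools labelled knockout and 3.50 and 3.82 in the Apc Min pools. The difference between the lists, type I minus GTPases, was 0.84 and 1.16 in the pools labelled knockout and 0.33 and -0.21 in the Apc Min pools. Apc Min pool 2 was thus farthest from the pools labelled knockout on both lists. Between the Apc Min pools, pool 2 was below pool 1 for 18 of 23 type I targets, with a median difference of -0.22, and above it for 8 of 11 GTPases, with a median of 0.42. Over all genes tested pool 2 was above pool 1 for 35.5%. The fold change was positive and larger than the difference within either group for 16 of the 23 type I targets, where 11.9% of all genes were so. It was negative and larger for 6 of the 11 GTPases, where 37.9% were. Without Apc Min replicate 2 the median of the GTPases was -0.36, against -0.70 with all 4 pools, and that of the type I targets 0.30, against 0.38. Type I targets higher in every pool labelled knockout then numbered 19 of 23, where 22.3% of all genes did so, and GTPases lower in every one numbered 10 of 11, where 64.6% did. In that fit limma also called Ddx60 (log2 fold change 0.64, limma adjusted p = 0.04996) and Ifit2 (-1.08, limma adjusted p = 0.0461), where Apc Min was 1 pool whose spread is taken from the other group.

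**Figure D3:**
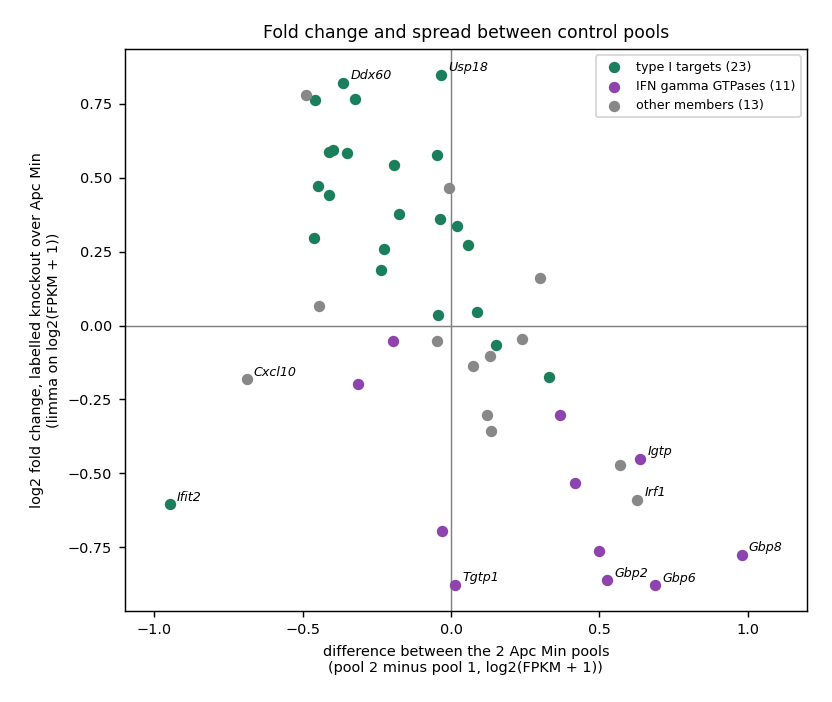
For each of the 47 genes, the log2 fold change (pools labelled knockout over Apc Min) against the difference between the Apc Min pools (pool 2 minus pool 1); both axes use the Apc Min values. Tgtp1 and Usp18 lie near 0 on the horizontal axis, and Gbp8, Gbp6, Igtp and Irf1 lie far to the right of it.

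Upstream genes of the pathway were expressed in all 4 pools. None of the 21 interferon genes looked for is among the genes listed, and they were not analysed here. Of the genes listed, 0 had means under 1 FPKM in both groups. Absence of the interferon genes therefore does not show that they were silent. Of 6 receptor genes 0 passed limma's threshold (1 at an unadjusted p under 0.05). Il10rb, the shared chain of the interferon lambda and IL-10 receptors, had 60.9 and 70.9 FPKM in the pools labelled knockout, against 45.8 and 41.02 FPKM in the Apc Min pools (log2 fold change 0.59, SE 0.12, adjusted p = 0.0942 by limma). Ifnlr1, the other lambda chain, had 8.69 and 9.88 FPKM in the pools labelled knockout, against 8.43 and 7.34 FPKM in the Apc Min pools. The type I receptor genes Ifnar1 and Ifnar2 had log2 fold changes of 0.03 and 0.40, and the gamma receptor genes Ifngr1 and Ifngr2 -0.11 and 0.05. Jak2, used by the gamma receptor, had 23.9 and 24.3 FPKM in the pools labelled knockout, against 19.3 and 20.96 FPKM in the Apc Min pools (log2 fold change 0.25). Socs1, a feedback inhibitor, had 5.55 and 3.58 FPKM in the pools labelled knockout, against 6.01 and 14.1 FPKM in the Apc Min pools (log2 fold change -0.91), with Apc Min pool 2 highest. None of the 9 kinase, STAT and inhibitor genes passed limma's threshold, and 1 of them, Jak2, had an unadjusted p under 0.05.

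Further targets outside the 47 were counted the same way. Of 59 other type I targets 52 were listed and 51 tested: 1 passed higher and 0 lower, and the median log2 fold change was 0.02. Both pools labelled knockout stood above both Apc Min pools for 18 of them (35.3%, against 14.9% of all genes) and below for 15 (29.4%, against 48.5%). After median-ratio scaling these counts were 25 above and 4 below, where 27.9% and 28.3% of all genes were, with a median of 0.19. The gene that passed was Ifi27, a mitochondrial protein gene, which rose: it had 43.3 and 43.4 FPKM in the pools labelled knockout, against 19.5 and 16.9 FPKM in the Apc Min pools (log2 fold change 1.21, SE 0.11, adjusted p = 0.0417 by limma). Its limma adjusted p ran from 0.0270 to 0.283 over all settings, under 0.05 in 7 of them, and it lies inside the span of Ifi27l2a on the opposite strand, which makes its value uncertain. Trim30d and Rnf213 had log2 fold changes of 0.42 and 0.42, and Mlkl, an effector of necroptosis, -0.77. Of 32 other interferon gamma targets 25 were tested and 0 passed higher and 0 lower by limma, with 0 higher and 4 lower at an unadjusted p under 0.05, where 7.49% of all genes were higher and 19.1% lower, so the lower count is near the background. Their median was -0.27, or -0.10 after median-ratio scaling. Both pools labelled knockout stood above both Apc Min pools for 2 of these 25 (8%, against 14.9% of all genes). They stood below for 12 (48%, against 48.5%), which is also near the background. After median-ratio scaling 4 stood above and 7 below, where 27.9% and 28.3% of all genes did. Wars, a tRNA synthetase gene induced by interferon gamma, had 32.03 and 27.5 FPKM in the pools labelled knockout, against 47.9 and 52.1 FPKM in the Apc Min pools (log2 fold change -0.73, SE 0.12, adjusted p = 0.0737 by limma). Ifi47, an immunity-related GTPase gene, had 24.6 and 18.7 FPKM in the pools labelled knockout, against 31.6 and 40.1 FPKM in the Apc Min pools (log2 fold change -0.71, SE 0.18, adjusted p = 0.121 by limma). Ifi47 shares 20401 bases with Olfr56 on the same strand, which makes its value uncertain.

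Antigen presentation, which interferons also induce, was looked at beside these lists. Of 19 genes of MHC class I presentation 8 were higher and 3 lower in both pools labelled knockout, around a median log2 fold change of 0.03. These are 42.1% and 15.8%, against 14.9% and 48.5% of all genes. After median-ratio scaling 10 were higher and 1 lower, where 27.9% and 28.3% of all genes were, with a median of 0.19. Without that scaling 10 fold changes were positive and 9 negative, from -0.61 to 1.28, the largest being that of H2-Q1. By limma 0 passed, and at an unadjusted p under 0.05 3 were higher and 1 lower. Of all genes 7.49% were higher and 19.1% lower at that p. H2-Q1, a class I gene, had 71.5 and 97.7 FPKM in the pools labelled knockout, against 34.8 and 32.9 FPKM in the Apc Min pools (log2 fold change 1.28, SE 0.17, adjusted p = 0.0585 by limma). The mean log2(FPKM + 1) of 8 class II genes was 6.85 and 6.41 in the pools labelled knockout and 6.55 and 7.15 in the Apc Min pools, so that the groups overlapped. Ciita, the switch of class II expression, had 6.95 and 4.02 FPKM in the pools labelled knockout, against 7.22 and 12.7 FPKM in the Apc Min pools.

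Markers of other cells were compared in the same pools. Of 18 markers of T cells and intraepithelial lymphocytes, the main gut source of interferon gamma, 16 were listed, and their summed level was 321 and 292 FPKM in the pools labelled knockout and 284 and 436 FPKM in the Apc Min pools. Apc Min pool 2 stood highest by this sum. The list's mean log2(FPKM + 1) was 3.49 and 3.27 in the pools labelled knockout. In the Apc Min pools it was 3.33 and 3.55, so the groups overlapped. The T cell marker Cd3e had 7.29 and 5.53 FPKM in the pools labelled knockout, against 6.33 and 7.89 FPKM in the Apc Min pools. Cd8a had 8.77 and 7.88 FPKM in the pools labelled knockout, against 6.41 and 11.1 FPKM in the Apc Min pools. Of 17 macrophage and dendritic cell markers 14 were listed, with sums of 212 and 181 FPKM in the pools labelled knockout and 215 and 202 FPKM in the Apc Min pools. Of 12 B and plasma cell markers 11 were listed, with sums of 7894 and 6265 FPKM in the pools labelled knockout and 6672 and 7786 FPKM in the Apc Min pools. Limma called 1 of these 11, Cd38, lower (adjusted p = 0.0459 by limma), where it called 0.131% of all genes lower. In the T cell list and the macrophage and dendritic cell list 0 passed. None of the listed defining markers Cd3e, Cd8a and Csf1r was at 0 in any pool, so RNA of immune cells was present in all 4. Their part in the interferon genes' values was not tested.

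Markers of epithelial cells were compared as well, beside 14.9% of all genes higher and 48.5% lower in both pools labelled knockout. Limma called 0.595% of all genes higher and 0.131% lower at its threshold. All 22 enterocyte markers were higher in both pools labelled knockout, with sums of 26311 and 31121 FPKM in the pools labelled knockout and 15870 and 17610 FPKM in the Apc Min pools, and 3 passed limma's threshold. All 12 proliferation markers were lower in both, with sums of 189.8 and 193 FPKM in the pools labelled knockout and 283 and 258 FPKM in the Apc Min pools, and 0 passed by limma (10 at an unadjusted p under 0.05, where 19.1% of all genes were lower). Of 12 Paneth cell markers 9 were lower in both, with sums of 5318 and 8348 FPKM in the pools labelled knockout and 11108 and 12940 FPKM in the Apc Min pools, and 2 passed. Lower in both were also all 5 tested tuft cell markers, of which 1 (Sh2d6) passed, 9 of 10 crypt base stem cell markers, 6 of 8 goblet cell markers and 8 of 10 general epithelial markers, with 0 passing by limma in the last 3 lists (5, 3 and 5 at an unadjusted p under 0.05). After median-ratio scaling the counts lower in both were 10 of 12 for proliferation, 8 of 12 for Paneth, 4 of 5 for tuft, 7 of 10 for stem, 3 of 8 for goblet and 6 of 10 for general epithelial markers, where 28.3% of all genes were lower. By mean log2(FPKM + 1) the type I targets and the enterocyte markers had the same order of pools, highest in pool 2 labelled knockout and lowest in Apc Min pool 2, and the GTPases had the reverse order. By summed FPKM the enterocyte markers were lowest in Apc Min pool 1. After median-ratio scaling all 22 enterocyte markers were still higher in both pools labelled knockout, where 27.9% of all genes were. The part of these shifts in the interferon genes' values was not tested.

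**Figure D4:**
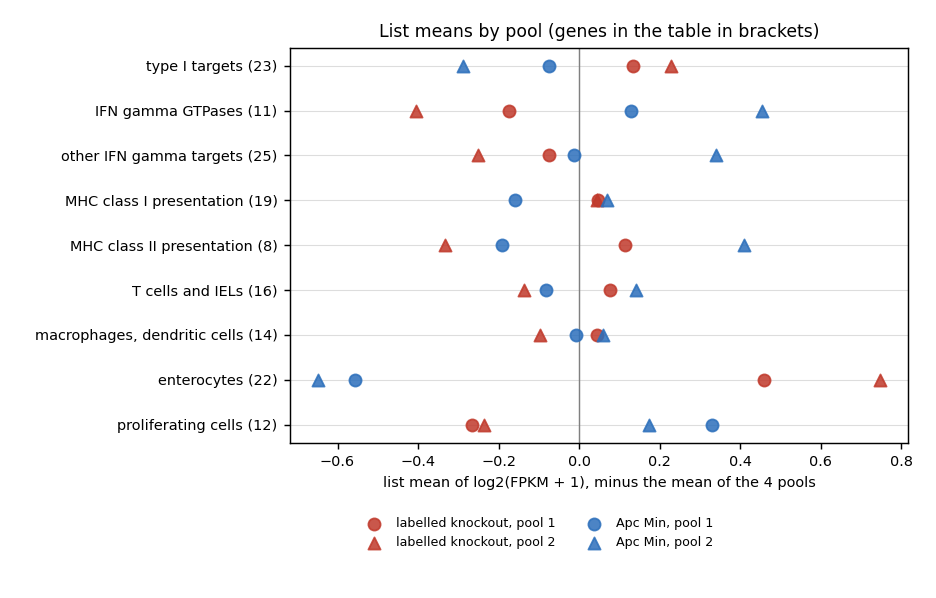
Mean log2(FPKM + 1) of each gene list in each pool, minus the mean of the 4 pools. Red points (labelled knockout) lie right of blue points (Apc Min) for type I targets and enterocytes and left of them for the GTPases and proliferating cells, and the groups overlap for T cells and for MHC class II.

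The authors' deposited table gives no q-value under 0.05 to any of the 47 genes, while it gives one to 285 of all genes. In the authors' deposited table the p-value was under 0.05 for 2 members, Irf1 (p-value 0.008501, q-value 0.5004) and Oasl2 (p-value 0.0302). Those values come from the same 4 libraries.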

How the data were processed

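The authors deposited 1 expression value per gene and library, together with group means, log2 fold changes and each gene's p-value or q-value, per the file headers. No unit is named there. The values were read as FPKM deposited by the authors (reads per gene length and library total), because each of 13359 genes gave whole reads within 0.002 in all 4 libraries for 1 length. The library totals behind the values were 46551218 and 47990019 reads in the pools labelled knockout and 44718091 and 48778712 in the Apc Min pools. On simulated data 94.7% of 600 genes were recovered exactly, so reads serve only the limma-voom alternative and the depth. HISAT2 and mm10 are named, without roles, per the submitters' processing notes; how reads were counted, against which annotation and whether by strand is unstated in the labels. Of 13527 entries 168 repeated another exactly and were used once. All per-sample columns were used. ChIP-seq and input libraries (4) from HCT116 cells, a line of human colorectal cancer, were not used here.

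The 12948 genes that reached 1 FPKM in 2 or more libraries were tested on log2(FPKM + 1) with limma 3.58.1 under R 4.3.3, using a variance trend, robust moderation and genotype as the only term. Benjamini-Hochberg adjustment ran over all genes tested, with a threshold of 0.05. Fold changes on this scale are understated for low genes. The residual degrees of freedom were 2. Intervals are at 95%. The model was tested on simulated data with known changes. Every member may be named, with up to 4 genes of smallest p from each other list. Members and lists were chosen with earlier results of these data known, so lists are described by counts and medians and not tested. Promoter letters come from RefSeq (GRCm38.p6), where 36 of 47 members matched. No protein sequences were used. Alternatives changed the scaling, pseudocount (0.1), filter (none, or a mean of 5 FPKM), replicate block, trend and model, and left out each library.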

Additional observations from a re-analysis of the deposited data

How the results depend on the processing

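Over 12 alternatives the count of interferon response genes past the threshold stayed at 0, apart from 0 to 2 with 1 library left out; the 2 were Ddx60 and Ifit2 without Apc Min replicate 2. Of 557 fold changes of single members under an alternative, 536 kept their direction and their side of the threshold, 19 changed sign and 2 passed the threshold. The count over all genes, 94, was 1 without a filter on low values, 2 at a mean of 5 FPKM, 50 without the trend, 150 with limma-voom on recovered reads and 0 to 616 with 1 library left out (616 without Apc Min replicate 2, 80 without Apc Min replicate 1 and 0 without either pool labelled knockout). With the replicate block it was 0, and the members' count was 0 as well; the block left 1 residual degree of freedom, and pools of the same number share only that number (correlation of their deviations from the group means 0.045). The median of the type I targets was 0.54 after median-ratio scaling, 0.53 after quantile normalization and 0.30 to 0.53 with 1 library left out. The median of the GTPases ran from -0.81 to -0.36 with 1 library left out. With 1 library left out, alternatives added after seeing the data, 18 to 19 type I targets did not overlap and were higher, where 18.9% to 26.4% of all genes were, and 8 to 11 GTPases were lower, where 54.8% to 64.6% were. After median-ratio scaling the sign changed for Zbp1 (0.0315), Stat2 (0.10), Samhd1 (0.11), Parp12 (0.0676), Parp14 (0.12) and Gbp3 (0.0935). After quantile normalization it changed for Stat2 (0.0215), Samhd1 (0.0299), Parp14 (0.0474) and Gbp3 (0.12). With 1 library left out Stat2 ran from -0.14 to 0.011, Parp14 from -0.16 to 0.0743, Parp12 from -0.22 to 0.0199, Gbp3 from -0.17 to 0.0638, Cxcl10 from -0.53 to 0.16, Lgals3bp from -0.16 to 0.29, Ifih1 from -0.0155 to 0.10 and Eif2ak2 from -0.0296 to 0.0996. The cause of these changes was not tested. Depth limits Tgtp1, Isg15 and Cxcl10 most, whose fewest reads in a pool were 120, 199 and 234.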
